A study of Mus musculus with 7 samples.

Results

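The 10 insulin and IGF signalling genes described here are the ligands Igf1 and Igf2, the receptors Igf1r and Insr, the receptor substrates Irs1 and Irs2, the binding proteins Igfbp3, Igfbp4 and Igfbp5, and the adaptor Grb10. They were chosen by gene symbol, and every one of their 22 probes among the 45128 probes of the array was followed. These genes and the gene lists used below were chosen with earlier results of these data known. The platform annotation names 19026 genes in all. Each array measured 1 allografted NPK tumour, a mouse prostate cancer transplanted into NU/J athymic nude hosts, on an Illumina bead chip. Groups were 4 tumours of mice given RAPPD and 3 tumours of mice given vehicle, every day for 5 days, and tumours were taken on the fifth. The labels spell out neither RAPPD nor NPK. In the published work on this model RAPPD stands for rapamycin, which inhibits the kinase mTOR, combined with a MEK kinase inhibitor. The hosts of both groups lack a thymus, and tumour samples hold host stroma and blood cells next to the grafted cells. Whether grafts within a group had different donors is not stated. Each p-value thus reflects the spread of these 7 tumours, which may not be independent samples.

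IGF1 and IGF2 bind the receptor tyrosine kinase IGF1R, and insulin binds the related receptor INSR. The activated receptors phosphorylate the substrate proteins IRS1 and IRS2, which recruit PI3 kinase and so switch on AKT and mTOR complex 1. This complex and its kinase S6K act back on the top of the pathway, in part by promoting IRS protein loss and by stabilising the receptor inhibitor GRB10, and AKT keeps FOXO transcription factors out of the nucleus, where they can raise receptor and Irs2 transcription. IGF binding proteins hold IGFs outside the cell, and proteases such as pappalysin release them. The comparison asked which of these transcripts differed after a short treatment that acts on mTOR and MEK.

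Promoter sequences are shown first for the genes whose brightest probe passed the test (Igfbp5, Igf1 and Igf1r) and for the Irs genes, of which Irs2 is a known FOXO target. Of the 10 members, 9 had an entry in the RefSeq promoter table of GRCm38.p6, all but Insr, with 13 windows in all, each running from 250 bases before a transcription start to 50 bases after it. The windows of Igfbp5 (chr1:72874816-72875115, minus strand), Igf1 (chr10:87860861-87861160, plus strand) and Igf1r (chr7:67952007-67952306, plus strand) are printed 5′ to 3′ with CpG pairs in capitals.
Igfbp5: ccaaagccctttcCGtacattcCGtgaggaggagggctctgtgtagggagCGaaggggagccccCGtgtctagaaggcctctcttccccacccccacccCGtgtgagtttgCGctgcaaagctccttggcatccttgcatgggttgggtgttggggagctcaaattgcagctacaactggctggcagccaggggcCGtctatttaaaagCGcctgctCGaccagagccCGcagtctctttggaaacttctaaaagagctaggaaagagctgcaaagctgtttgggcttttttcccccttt
Igf1: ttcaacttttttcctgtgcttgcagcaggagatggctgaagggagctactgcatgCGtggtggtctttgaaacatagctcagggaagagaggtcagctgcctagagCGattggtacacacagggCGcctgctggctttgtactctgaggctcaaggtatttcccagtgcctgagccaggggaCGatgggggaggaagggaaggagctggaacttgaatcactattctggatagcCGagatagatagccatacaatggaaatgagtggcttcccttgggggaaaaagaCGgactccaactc
Igf1r: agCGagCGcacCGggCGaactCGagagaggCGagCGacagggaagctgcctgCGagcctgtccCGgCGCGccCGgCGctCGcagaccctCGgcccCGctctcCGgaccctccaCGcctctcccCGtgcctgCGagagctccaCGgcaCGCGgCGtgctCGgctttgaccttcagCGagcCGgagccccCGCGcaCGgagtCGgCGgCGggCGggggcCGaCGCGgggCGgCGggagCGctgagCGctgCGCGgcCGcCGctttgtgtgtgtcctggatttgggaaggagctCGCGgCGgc
The Igf1r window held 48 CpG pairs at 76.0% G and C, whereas Igfbp5 held 10 CpG pairs at 56.3% and Igf1 held 6 at 52.3%. Over all 32851 windows of the table the median was 7 CpG pairs and 52.7% G and C. The genes with the largest fall and the largest rise among the members thus have windows near the median of the table, and the receptor gene has a CpG-rich one.

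Short motifs were looked for on both strands, namely the TATA box TATAAA, the GC box GGGCGG, the FOXO site TGTTTAC, the insulin response element TGTTTTG, which is another FOXO site, and the E-box CACGTG, which reads the same on both strands. They occur in 13.6%, 35.7%, 3.65%, 6.28% and 7.15% of all windows. None of the 13 member windows held TGTTTAC, and TATAAA stood in that of Igfbp4 alone. The insulin response element stood 2 times in the Irs1 window, 1 time in the Irs2 window and in no other member window. In both genes 1 copy followed an E-box closely. GGGCGG stood in windows of Igf2, Igf1r, Irs1, Irs2 and Grb10. The stretches that hold both motifs, for Irs1 (chr1:82291515-82291574, minus strand) and Irs2 (chr8:11008934-11008993, minus strand) and for their relative Irs4 (chrX:141725332-141725391, minus strand), are printed 5′ to 3′ with both motifs in capitals.
Irs1: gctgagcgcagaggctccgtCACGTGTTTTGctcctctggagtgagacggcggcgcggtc
Irs2: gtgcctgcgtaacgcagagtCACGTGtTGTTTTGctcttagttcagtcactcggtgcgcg
Irs4: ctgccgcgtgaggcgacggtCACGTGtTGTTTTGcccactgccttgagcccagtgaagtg
In Irs1 the motifs share 2 bases, and in Irs2 and Irs4 the insulin response element starts 7 bases after the start of the E-box. Of all 32851 windows, 3 (0.00913%) hold TGTTTTG on the gene's strand starting at most 8 bases after the start of a CACGTG, and they belong to Irs1, Irs2 and Irs4. This spacing was looked for after the Irs1 and Irs2 sequences had been seen. A match is a stretch of letters and not a site shown to be bound.

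Arrays were alike in the number of probes above background. Between 20323 and 21330 probes stood above background per array, and Pearson's r between arrays ranged from 0.912 to 0.984 across the 21249 probes that were above background on at least 3 arrays. Vehicle 1 and vehicle 2 were each the only array of this series on their chip, and vehicle 3 shared a chip with all 4 RAPPD arrays. The summed level of 9 measured skeletal muscle markers was 182 to 295 in RAPPD tumours, against 352, 91800 and 118 in vehicle 1 to 3, so muscle RNA was high in vehicle 2 alone. The luminal keratin genes Krt8 and Krt18 were above background in all 7 tumours, while the epithelial marker Epcam was above background on fewer than 3 arrays. In tumour RNA, fewer cells of a type and less RNA per cell cannot be told apart.

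The binding protein gene Igfbp5 was 4.15-fold to 4.86-fold lower in RAPPD tumours by its 3 probes, all called, and the ligand gene Igf1 rose 3.41-fold by its brighter probe. The other Igf1 probe was not called, and against vehicle 3 alone, the vehicle tumour on the same chip, the Igf1 differences were 0.97 and 0.11 on the log2 scale and not called. The receptor gene Igf1r rose 1.53-fold by its brightest probe and Grb10 rose 1.73-fold by a dim probe, both with calls that were easily lost. Insr, Irs2, Igf2, Igfbp3 and Igfbp4 were not called, and Irs1 was not above background in any tumour. In limma's fit over 21249 probes, 10.9% were called higher and 11% lower at a threshold of 0.05 for the adjusted p. Of the 18 member probes that passed the filter, 3 were called higher and 3 lower, and those 3 lower probes are all of Igfbp5. The groups did not overlap for 4 member probes with RAPPD higher and 3 with RAPPD lower, against 16.4% and 16.2% of all probes. By the brightest probe of a gene, 7 of 9 members had a positive difference. The median of the 9 was 0.60 on the log2 scale, against -0.014 over all 11085 genes. That median is the value of Igf2, the least precise member (0.60 ± 0.98, SE, limma adjusted p = 0.703).

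**Figure D1:**
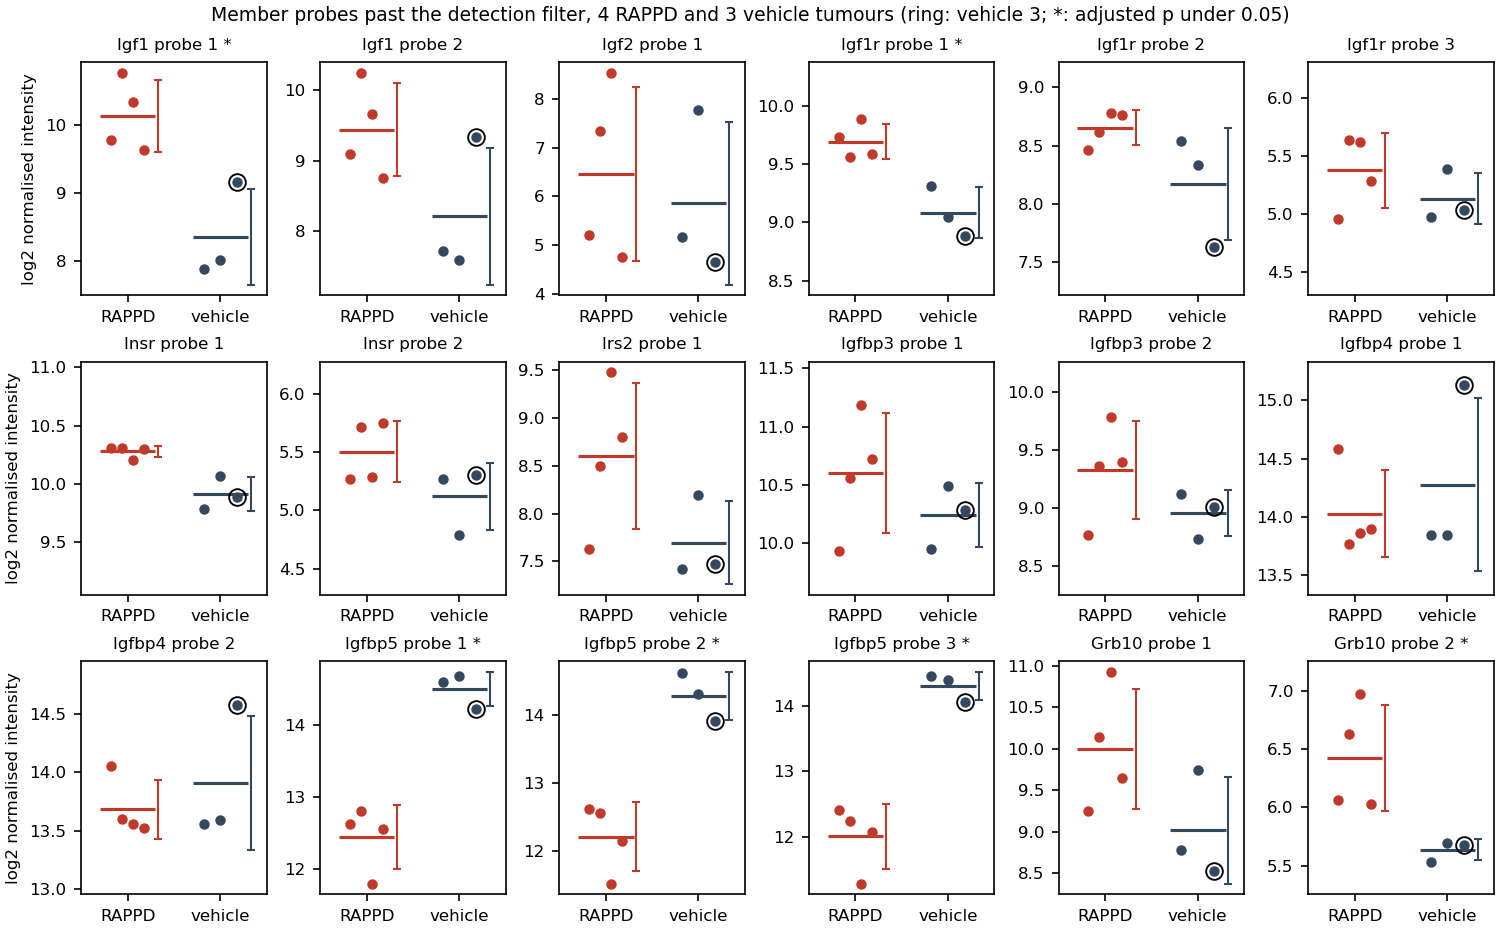
Log2 normalised intensity (y axis) of the 18 member probes that passed the filter, with points for the 4 RAPPD and 3 vehicle tumours, lines for group means and bars for ± SD; a ring marks vehicle 3 and an asterisk an adjusted p under 0.05. Each panel has its own y axis, and probes of a gene are numbered from the brightest. All 3 Igfbp5 probes lie lower in every RAPPD tumour than in any vehicle tumour, and vehicle 3 is the highest vehicle tumour for both probes of Igf1 and of Igfbp4.

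Among the ligands, Igf1 encodes insulin-like growth factor 1, which is made by liver and, within tissues, mostly by mesenchymal cells and macrophages. Its brighter probe (ILMN_1225565) read 9.78, 10.76, 10.34 and 9.63 on the log2 scale in RAPPD 1 to 4, against 7.89, 8.02 and 9.16 in vehicle 1 to 3. Every RAPPD tumour lay above every vehicle tumour, and vehicle 3 lay closest. The means were 10.13 ± 0.52 in RAPPD tumours and 8.36 ± 0.70 in vehicle tumours (SD, n = 4 and 3), a difference of 1.77 ± 0.36 (SE, limma adjusted p = 0.00861). The other probe (ILMN_2769884) read 9.09, 10.25, 9.67 and 8.75 in RAPPD tumours, against 7.70, 7.59 and 9.34 in vehicle tumours. Here vehicle 3 stood above 2 RAPPD tumours, and the difference of 1.23 ± 0.47 was not called (limma adjusted p = 0.0919). Without vehicle 3 this probe's difference was 1.79 and was called (limma adjusted p = 0.0142).

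A fit that takes chip as fixed block, here called the chip block, sets the 4 RAPPD arrays against vehicle 3 alone. In it the Igf1 differences were 0.97 ± 0.44 and 0.11 ± 0.53 (limma adjusted p = 0.218 and 0.919). There 7.56% of all probes were called. Chip and tumour cannot be told apart for vehicle 3, since it is the only vehicle array on its chip. Of the fibroblast markers, 4 of 19 were called higher and 2 lower, with a mean log2 level of 10.55 to 11.56 in RAPPD tumours, against 9.99, 10.12 and 10.84 in vehicle 1 to 3, and a summed level of 118000 to 185000 in RAPPD tumours, against 112000 to 132000 in vehicle tumours. All 19 fibroblast markers named on the array passed the filter. By the brightest probe, 10.6% of all genes were called higher and 12.7% lower in the fit of all arrays. These shares also apply to the other marker lists. Of 9 macrophage markers, 1 was called higher and 1 lower, with a summed level of 17900 to 26500 in RAPPD tumours, against 13700 to 21900 in vehicle tumours, and Fcgr1 did not pass the filter. The chip block fit called 0 fibroblast markers higher and 3 lower (Dpt, Fap and Lum, at -2.05, -1.36 and -1.45), and the list's median difference was 0.13, against 0.84 over all arrays. For macrophage markers that fit called 0 higher and 1 lower. Vehicle 3 had the highest mean of the vehicle tumours in both lists. In the macrophage list its mean of 9.735 was also above every RAPPD tumour (9.144 to 9.668). RAPPD 2, the highest tumour for Igf1, was the lowest RAPPD tumour in that list. In the fibroblast list RAPPD 3 was the highest tumour, and RAPPD 1 (10.55) lay below vehicle 3 (10.84). The part of these cell types in the Igf1 result was not tested.

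Igf2 encodes the fetal growth factor IGF2 and is an imprinted gene. Its single probe read 5.21, 7.34, 8.54 and 4.75 in RAPPD tumours, against 5.16, 7.77 and 4.65 in vehicle tumours. It was above background in 3 of 4 RAPPD and 2 of 3 vehicle tumours, with high values in RAPPD 2, RAPPD 3 and vehicle 2, so tumours of one group differed more than the groups did. The difference of 0.60 had a 95% interval of -1.60 to 2.81 (limma adjusted p = 0.703), and it was -0.0017 without vehicle 3 and -0.092 without RAPPD 3. Vehicle 2, the high vehicle tumour, is the one with skeletal muscle RNA, and the part of that tissue was not tested. The muscle marker sums of RAPPD 2 and RAPPD 3 were 228 and 265, within the range of the other tumours.

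Of the receptors, Igf1r had 4 probes, of which 3 passed the filter. The brightest (ILMN_1249824) read 9.73, 9.56, 9.89 and 9.59 in RAPPD tumours, against 9.32, 9.05 and 8.88 in vehicle tumours. The groups did not overlap, and the spread within RAPPD tumours was small (mean 9.69 ± 0.15 in RAPPD tumours and 9.08 ± 0.22 in vehicle tumours, SD). The rise was 0.61 ± 0.18 (limma adjusted p = 0.0349). Within the chip block it was 0.81 ± 0.23, and the call was lost (limma adjusted p = 0.0797). With array weights it was lost at 0.47 (limma adjusted p = 0.0568). The call was also lost, at differences of 0.51 to 0.65, without any one of RAPPD 1 to 4, vehicle 2 or vehicle 3 (limma adjusted p = 0.0636, 0.0629, 0.0936, 0.0633, 0.0804 and 0.0789). Without vehicle 1 the call was kept.

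The next Igf1r probe (ILMN_1239663) read 8.46, 8.61, 8.78 and 8.77 in RAPPD tumours, against 8.54, 8.34 and 7.63 in vehicle tumours. Only vehicle 3 stood clearly below the rest, and the difference of 0.49 ± 0.23 was not called (limma adjusted p = 0.166). Within the chip block it was 1.03 ± 0.23 and was called (limma adjusted p = 0.0451). That call rests on vehicle 3, the lowest tumour on this probe: without vehicle 3 the difference was 0.22 (limma adjusted p = 0.414), and with chip as a random block it was 0.66 (limma adjusted p = 0.0883). A dim probe (4.96 to 5.64 in RAPPD tumours and 4.98 to 5.38 in vehicle tumours) differed by 0.24 ± 0.21, and the last was not above background in any tumour.

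Insr encodes the insulin receptor, which in many cells also pairs with IGF1R in hybrid receptors. Its brightest probe (ILMN_1242794) read 10.31, 10.31, 10.21 and 10.30 in RAPPD tumours, against 9.78, 10.07 and 9.89 in vehicle tumours. The RAPPD tumours lay within a narrow band above all vehicle tumours. The difference of 0.37 had a 95% interval of 0.023 to 0.72 and was not called (limma adjusted p = 0.119). It was called from the submitters' processed values, at 0.28, and with array weights, at 0.43 (limma adjusted p = 0.0262 and 0.049). A dim probe differed by 0.38 ± 0.21 (limma adjusted p = 0.224). The probe ILMN_2628026 was above background in 1 RAPPD and 1 vehicle tumour and did not pass the filter. It is the only Insr probe annotated to a RefSeq transcript.

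Of the substrates, Irs1 was not above background in any tumour of either group by its single probe, which sets a limit on what these arrays can show for it. Irs2, a FOXO target gene and the other main docking protein of the receptors, read 7.63, 8.49, 9.48 and 8.80 in RAPPD tumours, against 7.42, 8.19 and 7.47 in vehicle tumours. RAPPD 1 lay among the vehicle tumours and the other RAPPD tumours lay above them. The difference of 0.91 had a 95% interval of 0.025 to 1.79 and was not called (limma adjusted p = 0.131). Without RAPPD 1 it was 1.23 and was called (limma adjusted p = 0.0223). It was 1.13 ± 0.61 within the chip block (limma adjusted p = 0.287).

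Of the binding proteins, Igfbp5 encodes a secreted protein that binds IGFs and the extracellular matrix. Its brightest probe (ILMN_2682613) read 12.63, 12.80, 11.80 and 12.56 in RAPPD tumours, against 14.60, 14.68 and 14.23 in vehicle tumours. Probe ILMN_1254358 read 12.62, 12.56, 11.53 and 12.15 in RAPPD tumours, against 14.61, 14.30 and 13.91 in vehicle tumours. Probe ILMN_2964324 read 12.42, 12.25, 11.30 and 12.09 in RAPPD tumours, against 14.45, 14.38 and 14.05 in vehicle tumours. On all 3 probes the groups were over 1 log2 unit apart, with RAPPD 3 the lowest tumour and vehicle 3 the lowest vehicle tumour.

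The log2 differences of Igfbp5 by these probes were -2.05 ± 0.25, -2.06 ± 0.29 and -2.28 ± 0.27 (SE), which is 4.15-fold, 4.18-fold and 4.86-fold lower (limma adjusted p = 7.13e-04, 0.00138 and 5.47e-04). Within the chip block they were -1.78 ± 0.39, -1.70 ± 0.43 and -2.03 ± 0.42 (limma adjusted p = 0.0429, 0.0618 and 0.0376), so the call of 1 probe was lost at a similar size. Before normalisation the intensities of the brightest probe were 6457, 7141, 3557 and 6046 in RAPPD tumours, against 25373, 25528 and 19669 in vehicle tumours. Of 6 measured luminal epithelium markers, 3 were called lower and 0 higher, with a summed level of 3380 to 10500 in RAPPD tumours, against 17600 to 29200 in vehicle tumours. Their mean log2 level overlapped between the groups, at 7.043 to 8.428 in RAPPD tumours, against 9.806, 9.523 and 7.967 in vehicle 1 to 3. The keratin gene Krt8 was 4.48-fold lower (limma adjusted p = 9.81e-04), and Epcam and Prom1 did not pass the filter. Of the 6, 1 was called lower and 0 higher within the chip block, and the median difference was -0.37, against -1.62 over all arrays, with Krt19 at 1.22 and Cldn3 at 1.28 there. The lowest RAPPD tumour in that sum was RAPPD 3 and the lowest vehicle tumour was vehicle 3, as for Igfbp5. The sums were 10500, 4010, 3380 and 4520 in RAPPD 1 to 4. Among RAPPD tumours the brightest Igfbp5 probe was highest in RAPPD 2, and the other probes were highest in RAPPD 1. The part of epithelial content in the Igfbp5 result was not tested.

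Igfbp4, a binding protein that mostly restrains IGF action, was bright and was not called. Its brighter probe (ILMN_2694955) read 14.58, 13.77, 13.86 and 13.90 in RAPPD tumours, against 13.84, 13.85 and 15.13 in vehicle tumours. Vehicle 3 and, less so, RAPPD 1 stood above 5 tumours that lay close together. The difference of -0.25 had a 95% interval of -1.01 to 0.52 (limma adjusted p = 0.646) and turned to 0.18 without vehicle 3. The other probe read 14.06, 13.60, 13.56 and 13.52 in RAPPD tumours, against 13.56, 13.59 and 14.58 in vehicle tumours, with the same tumours high, and its difference of -0.23 turned to 0.11 without vehicle 3. Within the chip block the differences were -1.10 ± 0.34 and -0.89 ± 0.27 (limma adjusted p = 0.102 and 0.0976).

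Igfbp3 encodes the main IGF carrier of the circulation. Its brighter probe (ILMN_2727503) read 9.93, 10.56, 11.18 and 10.72 in RAPPD tumours, against 9.95, 10.49 and 10.28 in vehicle tumours. The groups overlapped because RAPPD 1 lay at the level of the lowest vehicle tumour. The difference of 0.36 had a 95% interval of -0.28 to 0.99 (limma adjusted p = 0.399). The other probe (8.77 to 9.78 in RAPPD tumours and 8.73 to 9.12 in vehicle tumours) differed by 0.37 ± 0.24 (limma adjusted p = 0.303).

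**Figure D2:**
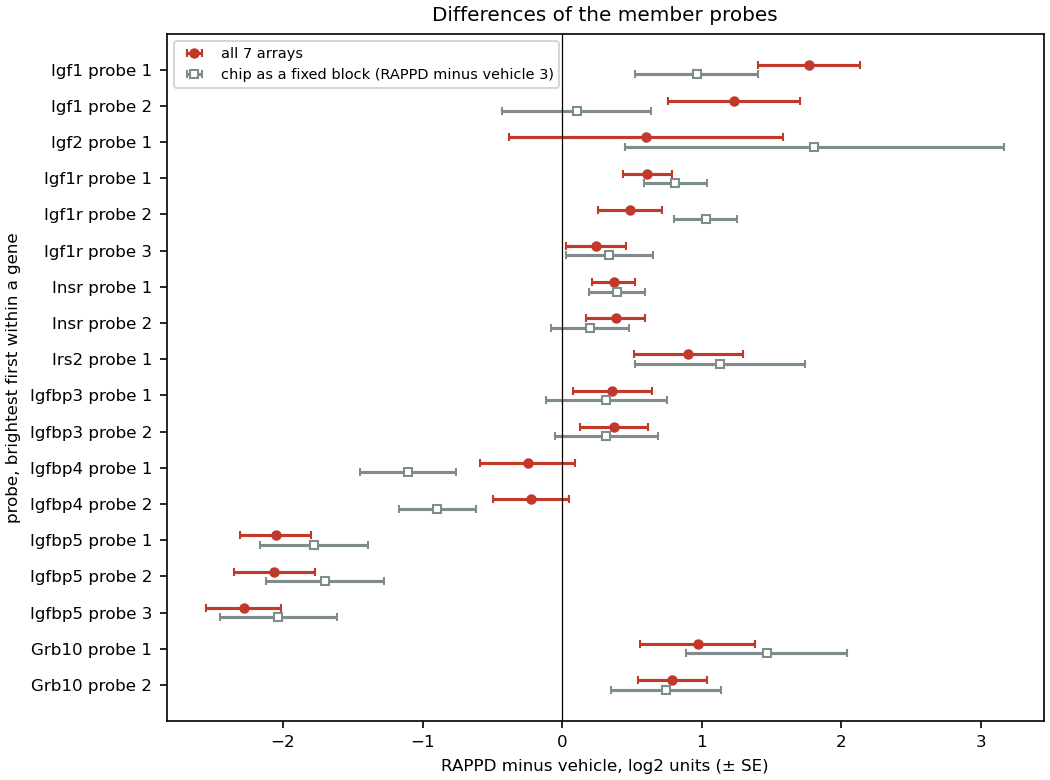
RAPPD minus vehicle differences in log2 units (x axis, ± SE) of the 18 member probes, from all 7 arrays (filled circles) and with chip as a fixed block (open squares), which compares RAPPD tumours with vehicle 3 alone. Igfbp5 lies between -2.28 and -1.70 in both fits, while the brighter Igf1 probe lies at 1.77 and 0.97.

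Grb10 encodes an adaptor that binds the activated receptors and inhibits them, and it is imprinted. Its brightest probe (ILMN_2518412) read 9.25, 10.15, 10.93 and 9.65 in RAPPD tumours, against 8.79, 9.75 and 8.53 in vehicle tumours. Vehicle 2 lay above 2 of the RAPPD tumours, and the difference of 0.97 ± 0.41 was not called (limma adjusted p = 0.123). It was 1.47 ± 0.58 within the chip block (limma adjusted p = 0.166). A dim probe (ILMN_2546546) read 6.07, 6.63, 6.98 and 6.03 in RAPPD tumours, against 5.53, 5.70 and 5.68 in vehicle tumours, with no overlap. Its rise of 0.79 ± 0.25 was just past the threshold (limma adjusted p = 0.0482), and the call was lost under 15 of the 19 alternatives that tested it. Leaving out any one of vehicle 1, vehicle 2, vehicle 3, RAPPD 2 or RAPPD 3 was among these, at differences of 0.74, 0.82, 0.81, 0.72 and 0.60 (limma adjusted p = 0.138, 0.0899, 0.0805, 0.116 and 0.0979). The remaining probe was not above background in any tumour. Of the Grb10 probes only the brightest, which was not called, is annotated to a RefSeq transcript. In both measured Grb10 probes, as in Irs2, Igf2, both Igfbp3 probes and the 2 brighter Igf1r probes, RAPPD 3 was the highest tumour.

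Igf2 and Grb10 are imprinted, and 15 further imprinted genes were listed, of which 7 passed the filter. By the brightest probe, 2 of the 7 were called higher and 0 lower, with a median difference of 0.53, where 10.6% of all genes were called higher and 12.7% lower. The list was chosen with earlier results of these data known, so this count is a description. Cdkn1c, a cell cycle inhibitor gene that lies near Igf2 on the chromosome, read 8.30, 10.49, 10.94 and 9.36 in RAPPD tumours, against 6.38, 7.35 and 6.10 in vehicle tumours. It rose 8.96-fold (3.16 ± 0.58, limma adjusted p = 0.00505), with RAPPD 3 highest and RAPPD 1 lowest, and stood at 3.67 ± 0.91 within the chip block, where the call was lost (limma adjusted p = 0.0606). Peg3 rose by 1.77 ± 0.52 (limma adjusted p = 0.0381) with the same tumours high and low, and its call was lost under 9 of 20 alternatives. Among these were leaving out vehicle 1, vehicle 2, vehicle 3 or RAPPD 2, at 1.74, 1.83, 1.75 and 1.66.

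Other genes of the pathway were counted from 3 lists of 58 genes in all, of which 40 passed the filter. By the brightest probe, 9 rose and 2 fell, with a median difference of 0.45. Over all 11085 genes, 10.6% were called higher and 12.7% lower, with a median of -0.014. These shares apply to the counts of each of the 3 lists. The lists were chosen with earlier results of these data known, so their counts beside these shares are a description. On the ligand and receptor side, 2 of 9 rose and 0 fell. Pappa encodes the pappalysin that cleaves IGFBP4 and thereby frees IGFs, and it read 7.40, 9.27, 10.24 and 9.23 in RAPPD tumours, against 5.67, 5.98 and 6.49 in vehicle tumours. It rose 7.93-fold (2.99 ± 0.55, limma adjusted p = 0.00518), and the call was lost within the chip block (2.55 ± 0.91, limma adjusted p = 0.138) and with the submitters' values (1.20, limma adjusted p = 0.0523). Igf2bp3, an mRNA-binding protein gene, was above background in all 4 RAPPD tumours and in 0 of 3 vehicle tumours and was at least 1.49-fold higher (limma adjusted p = 0.0225). It passed the filter only through the RAPPD tumours, so its call and its place in the counts depend on that choice, and with no filter the adjusted p was 0.0481 in limma. Its call was lost under 6 of 19 alternatives, among them without vehicle 2, vehicle 3, RAPPD 3 or RAPPD 4 (limma adjusted p = 0.0728, 0.0506, 0.0578 and 0.059). The bound sets the mean of the RAPPD tumours against the lowest level that counts as above background on the vehicle arrays. The other binding protein genes Igfbp2, Igfbp6 and Igfbp7 differed by 0.49, 0.58 and 0.59 and were not called, and Igfbp1 did not pass the filter.

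Among adaptors and brakes of the receptors, 3 of 18 rose and 0 fell. Socs3 encodes a suppressor of cytokine signalling that can also bind the insulin receptor, and it read 12.46, 13.47, 13.43 and 13.42 in RAPPD tumours, against 10.26, 9.86 and 10.14 in vehicle tumours. The groups were over 2 log2 units apart. It rose 8.62-fold (3.11 ± 0.26, limma adjusted p = 8.0e-05), and by 3.06 ± 0.42 within the chip block (limma adjusted p = 0.0122). Neutrophil markers, of which 8 of 10 were called higher and 0 lower, had a summed level of 22400 to 66700 in RAPPD tumours, against 3830, 3160 and 12400 in vehicle 1 to 3. RAPPD 1 was the lowest RAPPD tumour there as for Socs3, whereas vehicle 3 was the highest vehicle tumour in the sum and not in Socs3. Ngp, among the neutrophil markers called higher, passed the filter only through the RAPPD tumours (above background in 4 of 4, against 0 of 3 vehicle tumours). Neutrophil markers called higher within the chip block numbered 2, and Ltf and Mmp8 did not pass the filter. Red blood cell markers, of which 5 of 5 were called higher, had a summed level of 77500 to 168000 in RAPPD tumours, with RAPPD 1 lowest, against 16000 to 32000 in vehicle tumours, and Epb42 did not pass the filter. The part of these cells in the result was not tested. Sh2b2, an adaptor of the insulin receptor, rose by 0.87 ± 0.19 (limma adjusted p = 0.0101), with another probe at -0.05. The exchange factor gene Sos2 rose by 0.62 ± 0.17 (limma adjusted p = 0.0282), and its call was lost under 9 of 20 alternatives, among them leaving out any tumour but vehicle 3, at 0.54 to 0.63, and the chip block, at 0.34.

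Of the PI3 kinase, AKT and FOXO genes, 4 of 13 rose and 2 fell. Foxo1, a transcription factor gene downstream of AKT, read 9.63, 9.82, 9.73 and 10.02 in RAPPD tumours, against 8.57, 8.57 and 8.46 in vehicle tumours, and rose 2.41-fold (1.27 ± 0.16, limma adjusted p = 8.79e-04). It rose by 1.35 ± 0.23 within the chip block (limma adjusted p = 0.0243). Foxo3 rose by 1.35 ± 0.23 (limma adjusted p = 0.00356), and its call was lost in that fit at 1.33 ± 0.36 (limma adjusted p = 0.0755). Pik3r1, the gene of the regulatory subunit p85, rose by 1.18 ± 0.27 (limma adjusted p = 0.0139), with its call lost under 3 of 20 alternatives. These were the chip block, at 0.71, and leaving out vehicle 1 or vehicle 2, at 1.14 and 0.99.

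Trib3 encodes a pseudokinase that can bind AKT and is induced by amino acid and folding stress. It read 7.68, 7.02, 6.71 and 7.08 in RAPPD tumours, against 11.19, 10.89 and 8.71 in vehicle tumours. It fell by 3.14 ± 0.53 (limma adjusted p = 0.00349), with other probes at -2.96 and -2.93, and vehicle 3 was the lowest vehicle tumour. Within the chip block it fell by 1.58 ± 0.36 (limma adjusted p = 0.0496). Phlpp1, an AKT phosphatase gene, fell by 0.65 ± 0.18 (limma adjusted p = 0.0337), and its call was lost under 8 of 20 alternatives. Among these were leaving out vehicle 1, vehicle 2, vehicle 3, RAPPD 2 or RAPPD 3, at -0.60, -0.71, -0.63, -0.56 and -0.60.

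**Figure D3:**
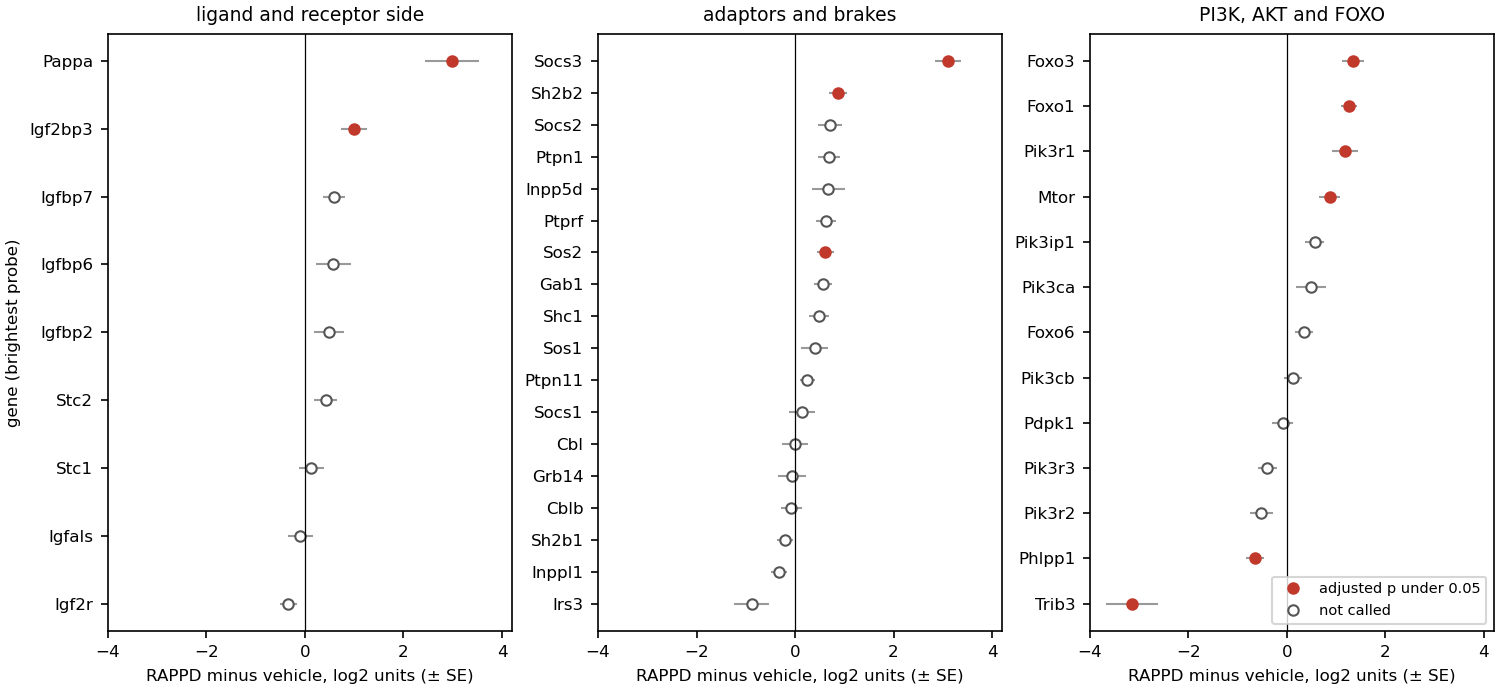
RAPPD minus vehicle differences in log2 units (x axis, ± SE) for the 40 pathway genes that passed the filter, by the brightest probe of each gene, in 3 panels for the 3 lists. Filled points were called, and 9 of them lie to the right of 0 and 2 to the left, with Socs3 at 3.11 and Trib3 at -3.14 the farthest out.

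For the members with the smallest adjusted p, the genes with the most similar array profile were looked up among 11076 others by the root mean square distance between profiles, each centred on its own mean over the 7 arrays. The profiles nearest to Igfbp5 were Dnah11, Fbxo30 and Hgh1, at distances of 0.137, 0.157 and 0.234 log2 units. Their differences of -2.03, -2.00 and -1.95 lie near that of Igfbp5 by the way these genes were picked. Nearest to Igf1 were the chemokine gene Ccl7, the collagen gene Col8a2 and the sulfatase gene Sulf2, at 0.221, 0.265 and 0.290. Nearest to Igf1r were Ccdc57, Rbm33 and Mzt2, at 0.0583, 0.0699 and 0.0782. These are descriptions of 7 arrays that share the treatment difference.

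**Figure D4:**
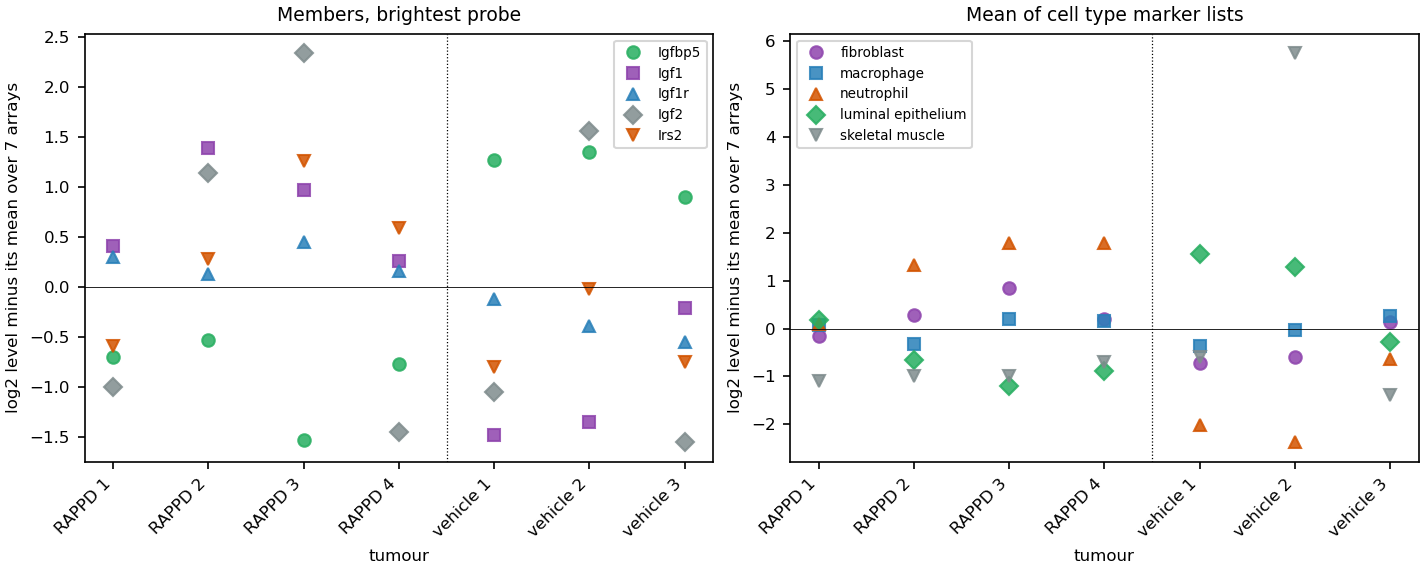
Log2 level of 5 members by their brightest probe (left) and mean log2 level of 5 cell type marker lists (right), each minus its own mean over the 7 arrays, for RAPPD 1 to 4 and vehicle 1 to 3 (x axis). Among vehicle tumours, Igf1 and the fibroblast, macrophage and neutrophil lists are all highest in vehicle 3. Among RAPPD tumours, Igf1 is highest in RAPPD 2 and the fibroblast list in RAPPD 3. The skeletal muscle list is high in vehicle 2 alone.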

How the data were processed

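RNA of 7 tumours was hybridised to Illumina mouse bead arrays. The deposited table holds background-subtracted intensities on a linear scale, and BeadStudio and lumi are named, without a role or version, in the submitters' processing notes. A further deposited table holds the authors' log2-like values, whose exact transform is unknown and which followed the order of the intensities (rank correlation at least 0.99999). They served as an alternative. Intensities per array averaged 498.1 to 501.9, so a scaling before export is possible, and 28.8% to 30.3% were below 0. No detection p-values or control probes were given, so normexp used a background mean of 0 and an SD taken from the negative intensities of each array (8.41 to 9.35). An offset of 16, quantile normalisation and log2 followed. A probe was above background when brighter than the 0.05 upper tail of this noise (13.8 to 15.4), and probes above it on at least 3 arrays were kept. The number of arrays limits the precision.

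Probes were named through the platform annotation: 34776 had 1 symbol, 18 several and 10334 were unnamed here. All 10 members matched a RefSeq gene table of GRCm38.p6 by Entrez identifier. RAPPD minus vehicle was tested by limma 3.58.1 in R 4.3.3 (lmFit, eBayes, two-sided), with Benjamini-Hochberg adjustment over 21249 probes and a threshold of 0.05. Replicate numbers only name tumours. The members and lists were chosen with earlier results of these data known. Named genes are all member probes, up to 3 called genes per list and direction with the largest difference, and the 3 nearest profiles of 3 members. Mtor was called higher too (0.87 ± 0.21, limma adjusted p = 0.0166) but fell outside the rule. Its other probe differed by 1.25, and within the chip block the brightest stood at 1.22. On simulated data with 4 against 3 arrays and 21249 probes, 46% of 2-fold and 92% of 4-fold changes were called. Of the simulated calls, 4.83% were false. Changes were placed in few and only brighter probes, with independent noise and no chip or tissue effect. The rates therefore do not cover dim probes or the chip layout of these data. Alternatives covered offset, background, normalisation, filter, probe choice, variance model, array weights, chip and each left-out array.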

Additional observations from a re-analysis of the deposited data

Results flagged for a closer look

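In the 4 RAPPD tumours, 3 of 18 member probes had 1 tumour far from the others by Dixon's test, which flags about 1 in 20 groups by chance. Both Igfbp4 probes were high in RAPPD 1, at 14.58 with the next tumour at 13.90 and at 14.06 with the next at 13.60 (log2), and these probes measure the same gene in the same tumour. The brightest Insr probe was low in RAPPD 3, at 10.21 with the next tumour at 10.30, a small gap in a tight group.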

How the results depend on the processing

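Over all alternatives, 311 values of member probes kept their direction and side of the threshold, 25 lost a call, 8 gained one and 4 turned direction. Those 4 were uncalled, namely both Igfbp4 probes and Igf2 without vehicle 3, and Igf2 without RAPPD 3. With 1 array left out, the Igfbp4 probes ranged from -0.46 to 0.18 and from -0.40 to 0.11, and Igf2 ranged from -0.092 to 1.56. The Igfbp5 probes were called by limma under every alternative that tested them, except that 1 of them missed with chip as a fixed block. Called member probes numbered 6 on all arrays, 4 to 6 with 1 array left out and 9 with array weights. They numbered 3 with the brightest probe per gene, where fewer probes were tested, and 3 with chip as a fixed block. Over all probes, 2325 were higher and 2345 lower. Leaving out 1 array gave 1445 to 2492 and 1558 to 2447, the lowest without vehicle 1. Array weights gave 3138 and 3154. The brightest probe per gene gave 1214 and 1457, and chip as a fixed block 656 and 951, where only 1 vehicle array informs the comparison. Chip as a random block used a correlation of 0.311. Of the pathway genes, 4 to 13 were higher (the lowest with chip as a fixed block) and 1 to 3 lower. An exact permutation test of single probes cannot go below 0.0571 with 4 against 3 arrays, so it can call no probe. No paired analysis was possible because the labels give no replicate numbers that pair tumours.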
